A study of Mus musculus with 12 samples.

Results

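Recombinant human PBEF given to mice that were also ventilated was set against ventilation without PBEF, on 6 of the 12 Affymetrix arrays of lung RNA in the series. The 3 arrays titled rhPBEF & VALI form the group called rhPBEF plus ventilation here, and the 3 titled VALI form the ventilation group. Each mouse of the first group was given 20 µg of rhPBEF through the trachea, dissolved in water at 1.5 µl per gram of mouse, and spent 4 hours on a ventilator set to a tidal volume of 30 ml/kg. Mice of the ventilation group had the same 4 hours at 30 ml/kg, a breath large enough to injure the lung mechanically. The other 6 arrays, 3 of rhPBEF without ventilation and 3 of control mice given PBS, supply rhPBEF against PBS in lungs that were not ventilated. With rhPBEF in water and controls given PBS, the vehicle cannot be told apart from rhPBEF there. All mice were 8 to 12 weeks old. The labels give no strain, no time between injection and tissue collection and no word on whether the ventilation group received a liquid vehicle, and they do not say that replicates were different mice. P-values therefore measure the spread between these arrays, which may be technical.

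PBEF stands for pre-B-cell colony-enhancing factor, and the gene that encodes it is Nampt. Inside cells it is the rate-limiting enzyme of NAD salvage, and outside cells it acts as a cytokine that has been reported to signal through Toll-like receptor 4. That receptor works with CD14 and leads to NF-kB, a family of transcription factors that switch on chemokines and cytokines together with their own inhibitors. In the injured lung, epithelial cells and macrophages release CXC chemokines that draw neutrophils from the blood into the airspaces.

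Each of 18193 genes was represented by 1 probe set, the brightest over all 12 arrays, and values are on the log2 scale. Lung identity was clear on all 12 arrays: Sftpc, the surfactant protein C of type II cells, lay between 14.76 and 14.97, and Ager, a type I cell marker, between 14.27 and 14.55. Some arrays stood apart from their replicates. The third rhPBEF plus ventilation array was the lowest of its group for 36 of the 40 genes that rose, and the first was the highest for 34. Ventilation replicate 2 was high in heat shock chaperones, whose mean there lay 1.29 above the mean of its group. The same array was high in immediate early factors (0.845, against -0.447 and -0.398 in ventilation replicates 1 and 3). B cell markers were high there too (0.637, against -0.607 and -0.03). Ventilation replicate 3 and rhPBEF replicate 2 were high in skeletal muscle genes, with list means 1.12 and 1.79 above the ventilation mean. The tissue is a mixture, so fewer cells of a type and less RNA per cell cannot be told apart.

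Lungs given rhPBEF as well as ventilation had higher levels of the CXC chemokines Cxcl1, Cxcl2, Cxcl3 and Cxcl5, of Ccl20, of the NF-kB feedback genes Nfkbie, Tnfaip3 and Birc3 (3 of 15 on that list), of the acute phase proteins Lcn2, Fgg and Itih4 (3 of 17) and of the anion exchanger Slc26a4. With limma's moderated test and Benjamini-Hochberg adjustment over all genes, 42 of 18193 genes passed 0.05, which is 0.231%. Of these, 40 were higher in rhPBEF plus ventilation (0.22%) and 2 were lower (0.011%). The rises ran from 0.64 to 5.58 on the log2 scale, with a median of 1.45, and 31 of the 40 reached 2-fold. The 6 arrays did not overlap for any of the 42 genes, against 1945 of all genes without overlap (10.7%). The 42 were picked by a test on the same values, so their lack of overlap adds no support. The median difference over all genes was -0.03, and at an unadjusted p under 0.05 there were 1665 genes (9.15%), 722 higher and 943 lower (3.97% and 5.18%). Differences above 0 were found for 7452 genes (41%). With 3 arrays a group, the smallest two-sided p of an exact permutation test is 0.1, so no gene was tested that way.

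The count leaned on which arrays entered the fit. Without the third rhPBEF plus ventilation array 396 genes passed (2.18%), all 42 among them. That array was singled out after its low values were seen. Higher counts without it, here and by list below, therefore add no support. Without ventilation replicate 2 there were 23 (0.126%), including 18 of the 42, and the sign was kept by all 42, each with an unadjusted p under 0.05. Leaving out both of those arrays gave 356 (1.96%), again with all 42. Leaving out rhPBEF plus ventilation replicates 1 or 2 gave 19 and 14, ventilation replicate 1 gave 16, and control replicates 1 or 2 gave 26 and 25. With only the 6 ventilated arrays in the fit, 1 gene passed, Ccl20, although all 42 differences keep their size there, since the means are the same. Where arrays were weighted by their quality, 1552 genes passed, 709 higher and 843 lower.

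Among the 42 genes past the test, each read by its brightest probe set, the 4 with the largest differences were all chemokines. Cxcl3, which binds the neutrophil receptor CXCR2, measured 11.25, 11.02 and 8.29 in the rhPBEF plus ventilation arrays and 4.65, 5.30 and 3.88 in the ventilation arrays. The groups were far apart, with the third rhPBEF plus ventilation array the nearest to ventilation, and the difference was 5.58 ± 0.65 (log2, standard error), with an adjusted p of 0.00449 by limma. Its ventilation mean lay at percentile 8.6 of all genes and cannot be told from background, so no fold is given. Cxcl2, another CXCR2 ligand, measured 13.18, 12.66 and 12.13 with rhPBEF plus ventilation and 8.06, 9.53 and 6.80 with ventilation, a 23.0-fold rise (limma adjusted p = 0.00449). Ventilation replicate 2 had the highest level of its group, still below all 3 arrays with rhPBEF. Ccl20, the ligand of CCR6 on dendritic cells and lymphocytes, measured 11.83, 11.49 and 11.07 against 7.28, 7.43 and 6.74, a 19.9-fold rise (limma adjusted p = 0.00135). Cxcl5, a neutrophil chemokine of lung epithelium, measured 10.77, 10.49 and 9.78 against 7.08, 7.31 and 4.98, a 14.8-fold rise, and the third ventilation array was low. Cxcl1 measured 12.83, 12.14 and 11.78 against 9.07, 9.57 and 8.69, a difference of 3.14 ± 0.25 (log2, standard error; limma adjusted p = 0.00132). Its 3 probe sets ranged from 1.11 to 3.93 in that difference, all upward.

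The promoters of the chemokines Cxcl1, Cxcl2, Cxcl3 and Ccl20 and of the NF-kB inhibitor Nfkbie are shown because they carry the letters of the site that NF-kB binds. Cxcl5, Csf3, Cd14, Il34, Malt1 and Slc7a2 were not matched in the promoter table. The sequences are RefSeq's 250 bases before the annotated gene start, build GRCm38.p6, read on the gene's strand, which is the plus strand for all 5. Capitals mark matches, on either strand, to a 10-letter motif that starts with GGG, goes on with any 3 letters and ends with TTCC.
Cxcl3, chr5:90785851-90786100: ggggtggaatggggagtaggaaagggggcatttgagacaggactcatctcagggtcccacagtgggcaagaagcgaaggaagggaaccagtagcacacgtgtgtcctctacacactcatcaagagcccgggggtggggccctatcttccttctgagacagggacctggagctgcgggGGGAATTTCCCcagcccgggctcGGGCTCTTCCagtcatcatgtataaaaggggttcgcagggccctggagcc
Cxcl2, chr5:90903649-90903898: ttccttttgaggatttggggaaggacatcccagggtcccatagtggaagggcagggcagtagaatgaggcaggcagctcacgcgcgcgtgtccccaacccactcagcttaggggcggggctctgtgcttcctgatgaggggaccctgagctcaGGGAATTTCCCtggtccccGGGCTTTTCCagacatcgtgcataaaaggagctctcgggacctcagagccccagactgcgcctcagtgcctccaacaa
Cxcl1, chr5:90890995-90891244: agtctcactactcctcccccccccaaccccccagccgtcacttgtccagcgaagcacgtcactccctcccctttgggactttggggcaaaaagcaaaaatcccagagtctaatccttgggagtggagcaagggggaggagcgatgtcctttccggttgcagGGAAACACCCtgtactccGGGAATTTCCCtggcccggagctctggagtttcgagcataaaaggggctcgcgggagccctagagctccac
Ccl20, chr1:83116516-83116765: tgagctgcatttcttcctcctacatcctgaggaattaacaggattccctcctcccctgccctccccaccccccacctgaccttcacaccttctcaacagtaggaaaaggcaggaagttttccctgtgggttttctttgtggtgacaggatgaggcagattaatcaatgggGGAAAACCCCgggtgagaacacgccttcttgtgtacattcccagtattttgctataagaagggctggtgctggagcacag
Nfkbie, chr17:45555450-45555699: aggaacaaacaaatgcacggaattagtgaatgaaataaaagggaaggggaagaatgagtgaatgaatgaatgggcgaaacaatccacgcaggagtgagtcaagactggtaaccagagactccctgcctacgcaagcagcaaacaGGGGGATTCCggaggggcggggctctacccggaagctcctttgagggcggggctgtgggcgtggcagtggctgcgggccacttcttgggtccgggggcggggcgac
In Cxcl1, Cxcl2 and Cxcl3 a longer stretch matches on both strands, so 2 of the 3 matches in each of these genes overlap. Of the 40 genes that rose, 34 had a promoter in the table, and 8 of them held the motif (23.5%). Among all genes tested 832 of 14452 did (5.76%), and among all promoters of the same length 1527 of 32851 did (4.65%). The other 3 genes with a match were Tnfaip3, Steap4 and Slc13a3. Neither of the 2 lower genes had a match. A match is a run of letters and does not show that a factor binds there.

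**Figure D1:**
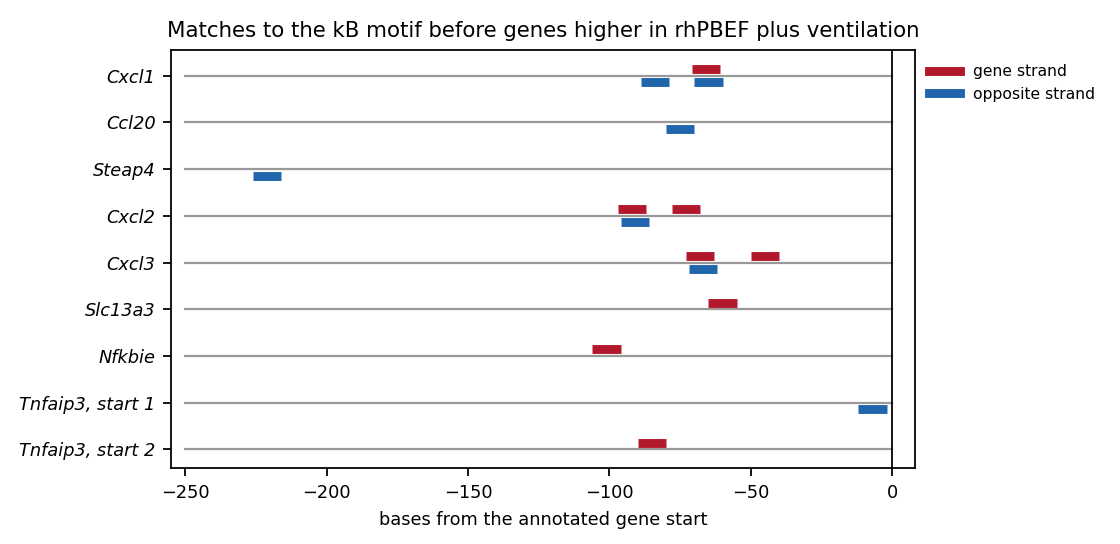
Positions of the kB motif in the 250 bases before the start of each gene that rose and holds a match; the x axis is the distance in bases from the annotated start, and colours give the strand. Cxcl1, Cxcl2 and Cxcl3 have 3 matches each, of which a pair overlaps, all within 100 bases of the start.

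**Figure D2:**
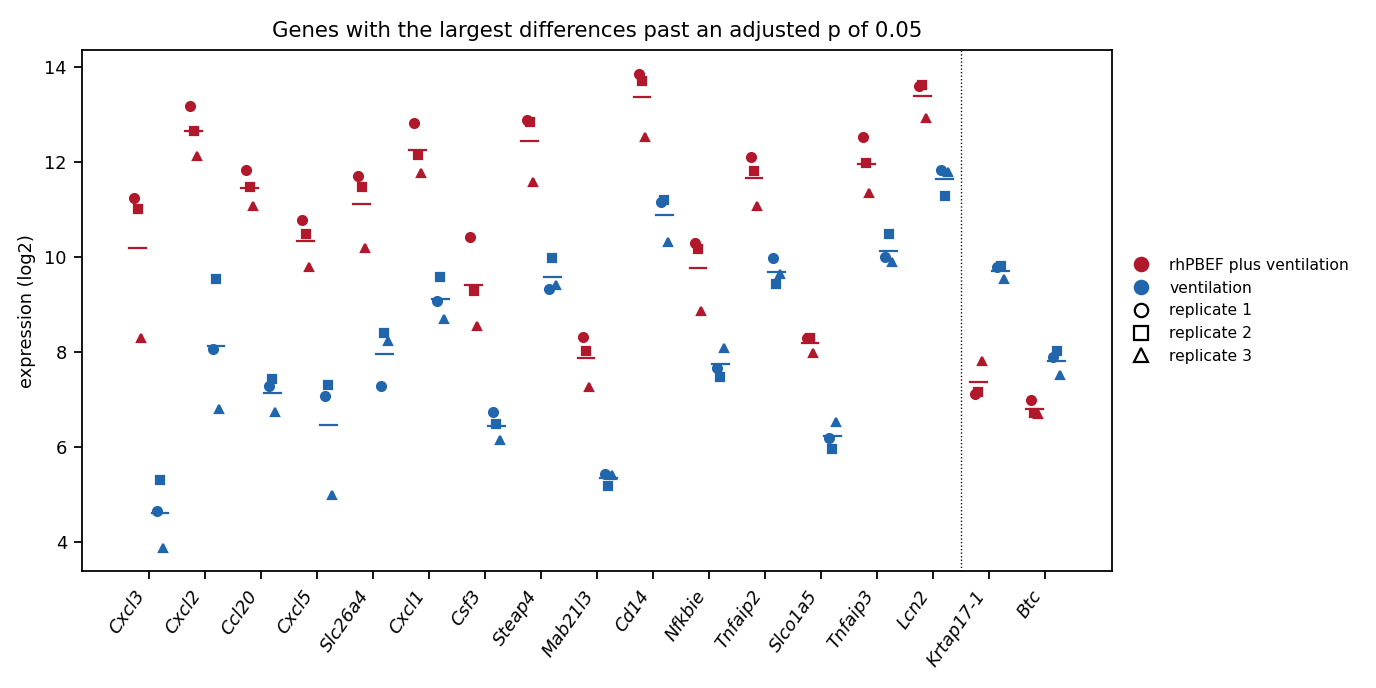
Expression (log2) of the 15 genes with the largest rises and, right of the dotted line, the 2 genes that fell; points are the 3 arrays of rhPBEF plus ventilation and the 3 of ventilation, shapes are replicates and bars are group means. The 17 genes were picked among those whose groups do not overlap. The third rhPBEF plus ventilation array is the lowest of its group for most rises.

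In the list of 8 tested neutrophil chemokines and receptors, those 4 CXC chemokines were the ones that passed, all upward, with a list median of 1.77 against -0.03 over all genes. Pf4, the platelet chemokine, came next at 0.41 (limma adjusted p = 0.412). Among 17 CC chemokines Ccl20 passed, and the list median was 0.94. Ccl3, a macrophage and neutrophil chemokine, measured 9.92, 9.35 and 7.37 in the rhPBEF plus ventilation arrays and 5.91, 7.35 and 6.41 in the ventilation arrays. The third array with rhPBEF lay within 0.1 of ventilation replicate 2, and the gene did not pass (limma adjusted p = 0.225). Ccl2, Ccl11, Ccl12 and Ccl17, which draw monocytes, eosinophils and T cells, differed by 1.66, 1.77, 1.74 and 1.69 with adjusted p-values from 0.22 to 0.442. Without the third rhPBEF plus ventilation array 8 of the 17 CC chemokines passed, and without ventilation replicate 2 there was 1. Cxcl10, a T cell chemokine induced by interferon, measured 11.71, 11.39 and 9.08 against 7.53, 8.26 and 7.15, with the same array low, and did not pass (limma adjusted p = 0.163). Ccrl2, an atypical receptor that binds chemerin, was the only member of 6 chemokine receptor genes to pass, at 10.82, 10.45 and 9.77 against 9.22, 8.65 and 8.95 (1.41, limma adjusted p = 0.0298), and it did not pass without ventilation replicate 2.

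Csf3, the growth factor that releases neutrophils from the marrow, was the member of the inflammatory cytokine list that passed. It measured 10.43, 9.28 and 8.55 in the rhPBEF plus ventilation arrays and 6.73, 6.48 and 6.15 in the ventilation arrays, a 7.82-fold difference (limma adjusted p = 0.0338). It was 1 of 19 on that list, the list median was 0.51, and without the third rhPBEF plus ventilation array 5 passed. Without ventilation replicate 2 there was 1. Il34, a second ligand of the macrophage growth factor receptor and not on the list, also rose, at 8.49, 8.39 and 7.93 against 7.49, 7.26 and 7.26 (0.94, limma adjusted p = 0.0233). Il6 measured 11.66, 10.32 and 11.09 against 7.65, 10.30 and 7.78. Ventilation replicate 2 was close to the second array with rhPBEF, and the difference of 2.44 did not pass (limma adjusted p = 0.249). Il1b measured 12.26, 11.50 and 10.20 against 10.81, 11.85 and 8.58, with overlapping groups (limma adjusted p = 0.763). Csf2, which sustains alveolar macrophages, measured 10.82, 10.51 and 8.005 against 7.21, 7.25 and 6.84 and did not pass (limma adjusted p = 0.167).

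NF-kB subunits and feedback inhibitors were all positive in difference. Of 15 tested, 3 passed, 14 had an unadjusted p under 0.05, and the median was 1.17 with a range from 0.13 to 2.03. Nfkbie, which encodes the inhibitor IkB epsilon, measured 10.29, 10.16 and 8.88 in the rhPBEF plus ventilation arrays and 7.67, 7.47 and 8.08 in the ventilation arrays (2.03 ± 0.33, log2 and standard error; limma adjusted p = 0.0338). Tnfaip3, the ubiquitin-editing enzyme A20 that shuts the pathway down, measured 12.54, 11.98 and 11.34 against 10.01, 10.48 and 9.89, a 3.55-fold rise. Birc3, a ubiquitin ligase of the TNF receptor complex, measured 12.77, 12.36 and 11.76 against 10.87, 10.47 and 10.93, a 2.91-fold rise. Relb and Nfkb2, the subunits of the noncanonical arm, differed by 1.49 and 1.36 with groups apart but adjusted p-values of 0.0646 and 0.106. Without the third rhPBEF plus ventilation array 9 of the 15 passed, and without ventilation replicate 2 there was 1. Other regulators near this pathway rose as well. Malt1, the protease that cleaves A20, differed by 1.43 (limma adjusted p = 0.0263). Zc3h12a, a nuclease that degrades cytokine messages, measured 9.91, 9.39 and 9.15 against 7.69, 8.01 and 7.81, a 3.12-fold rise. Hivep3, a zinc finger protein that binds kB-like sites, differed by 1.47 and Tnfaip2 by 1.98. Of the 42 genes 23 had several probe sets, and for 7 of them 1 or more probe sets differed by less than 0.25. Hivep3 ran from -0.10 to 1.47, Tnfaip2 from 0.05 to 1.98, Slco1a5 from 0.21 to 1.97, Slc13a3 from 0.0052 to 1.21, Slc7a2 from 0.03 to 1.74, Plet1 from -0.03 to 1.21 and Aco1 from -0.07 to 0.64. Genes with weaker probe sets above that limit included Zc3h12a (0.63 to 1.64), Plek (0.59 to 1.22) and Proz (0.58 to 1.004).

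Cd14, the co-receptor that hands ligands to Toll-like receptor 4, was the gene that passed among 19 of the Toll-like receptor pathway. It measured 13.86, 13.71 and 12.53 in the rhPBEF plus ventilation arrays and 11.16, 11.21 and 10.32 in the ventilation arrays, a 5.55-fold rise (limma adjusted p = 0.00901). The list median was 0.23. Without the third rhPBEF plus ventilation array 4 genes passed, and without ventilation replicate 2 there was 1. Tlr2 measured 11.24, 10.71 and 9.99 against 9.72, 9.68 and 8.71 and did not pass (limma adjusted p = 0.228).

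All 17 acute phase proteins had positive differences, and 3 passed. Lcn2, lipocalin 2, which withholds iron from bacteria and is made by epithelium and neutrophils, measured 13.61, 13.62 and 12.93 in the rhPBEF plus ventilation arrays and 11.84, 11.29 and 11.79 in the ventilation arrays, a 3.35-fold rise. Fgg, the gamma chain of fibrinogen, measured 8.30, 8.29 and 8.23 against 6.99, 7.39 and 7.35 and was tight within each group. Itih4, a plasma protein of the inter-alpha-trypsin inhibitor family, measured 11.40, 11.46 and 11.42 against 10.51, 10.50 and 10.89, an adjusted p of 0.0208 by limma. Saa3, the serum amyloid A of the mouse lung and macrophages, measured 13.92, 13.69 and 11.09 against 9.94, 8.83 and 8.83. The third array with rhPBEF was well below the other two, and the 3.70 difference missed the threshold (limma adjusted p = 0.0625). Saa1, Orm1 and Hpx showed the same low array and adjusted p-values of 0.281, 0.0817 and 0.0571, and Ptx3 had probe sets from -0.04 to 2.74. Without that array 13 of the 17 passed, and without ventilation replicate 2 there were 2.

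Several other genes that rose encode transporters, and they were put together after their values were seen. Slc26a4, pendrin, the anion exchanger that sends bicarbonate and thiocyanate into airway liquid, measured 11.71, 11.48 and 10.20 in the rhPBEF plus ventilation arrays and 7.29, 8.39 and 8.23 in the ventilation arrays, an 8.93-fold rise (limma adjusted p = 0.00449). It was the member that passed among 15 fluid transport genes, whose median was 0.03. Steap4, a metalloreductase of iron and copper, measured 12.89, 12.85 and 11.58 against 9.33, 9.97 and 9.42, a 7.32-fold rise. Slc7a2, an arginine transporter, measured 10.14, 9.82 and 9.54 against 8.56, 8.20 and 8.63. Slco1a5, an organic anion transporter, differed by 1.97, Slc5a1, a sodium-glucose cotransporter, by 0.98 and Slc13a3, a dicarboxylate transporter, by 1.21. Mab21l3, named here by its values alone, measured 8.32, 8.03 and 7.27 against 5.43, 5.19 and 5.42. For 7 of the 40 (Cxcl3, Mab21l3, Micall2, Proz, Slco1a5, Slc13a3 and Slc5a1) the ventilation mean lay under 6.42, the 40th percentile of all probe set means, and with no detection calls a low level cannot be told from background there. Cxcl5 and Csf3 lay just above that limit, with ventilation means of 6.457 and 6.455, so the same doubt holds for their folds.

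Sod2, the mitochondrial superoxide dismutase, measured 13.001, 12.88 and 11.98 in the rhPBEF plus ventilation arrays and 11.15, 10.99 and 11.30 in the ventilation arrays, a 2.78-fold rise, and was the member that passed among 20 metallothioneins and antioxidant genes. Without the third rhPBEF plus ventilation array 5 of those 20 passed, and without ventilation replicate 2 none did, Sod2 included. Aco1, an iron-sensing protein, differed by 0.64 and the histone variant H2az1 by 0.65. Plek, found in platelets and leukocytes, differed by 1.22 and Pik3r5, a regulator of PI3-kinase gamma, by 0.76. Proz, the plasma protein Z, differed by 1.004, Plscr1, a phospholipid scramblase, by 1.29, and Hs6st1, a heparan sulfate sulfotransferase, by 0.95. Micall2 (1.58), Plet1 (1.21), Vnn3 (1.13), Pdzk1ip1 (0.96) and Igsf8 (0.66) rose too, and 1 uncharacterised transcript completed the 40.

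**Figure D3:**
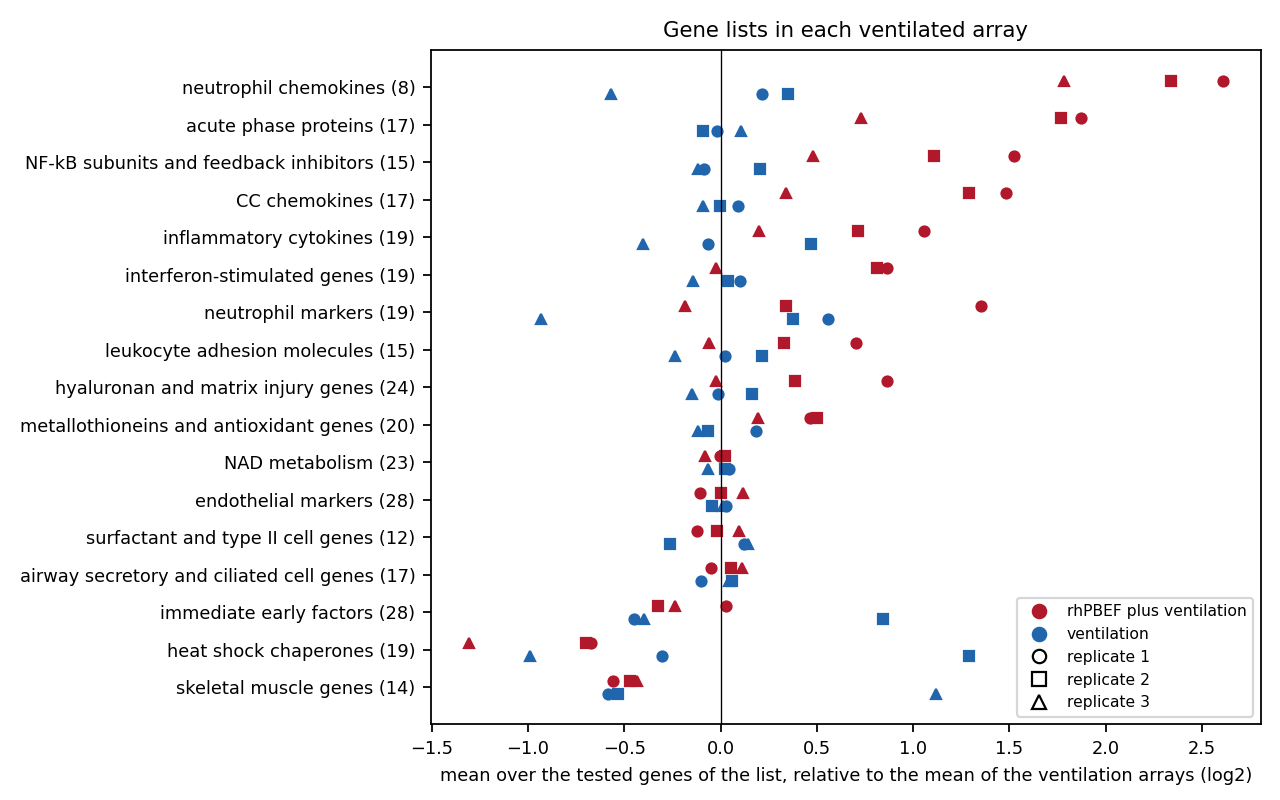
Mean over the tested genes of each list (number in brackets) in each of the 6 ventilated arrays, relative to the mean of the ventilation arrays (log2, x axis); rhPBEF plus ventilation is drawn above ventilation in each row and shapes are replicates. Chemokine, acute phase and NF-kB lists separate the groups, the antioxidant list does so narrowly, and neutrophil markers overlap. Heat shock chaperones and immediate early factors are high in ventilation replicate 2, and skeletal muscle genes in ventilation replicate 3.

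Among neutrophil markers, Lcn2 was the single gene of 19 that passed; epithelium makes it too. The list median was 0.34. The mean of the list lay 1.35, 0.34 and -0.18 above the ventilation mean in the 3 rhPBEF plus ventilation arrays and 0.56, 0.38 and -0.93 in the ventilation arrays, so the groups overlapped. S100a8, a calcium-binding protein that fills neutrophils, measured 14.05, 13.24 and 12.97 against 13.93, 13.59 and 11.61, and S100a9 measured 13.87, 12.76 and 12.55 against 13.63, 13.44 and 10.93. The third ventilation array was the low one for both, and neither passed (limma adjusted p = 0.871 and 0.89). These markers were chosen after their values were seen. Clec4e and Fpr2, receptors of activated myeloid cells, differed by 1.42 and 1.08 with adjusted p-values of 0.587 and 0.565. In lungs that were not ventilated the same list had a median of 1.50 and 5 genes past the test, all upward, but no gene passed the test of the difference between the contrasts.

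Interferon-stimulated genes had 19 positive differences of 19 and none past limma's test, with 7 at an unadjusted p under 0.05 and a median of 0.49. Without the third rhPBEF plus ventilation array 5 of the 19 passed and the median was 0.75. Without ventilation replicate 2 there were 0, with a median of 0.43. Gbp2, a guanylate-binding protein, measured 12.40, 12.27 and 10.43 against 10.56, 9.89 and 9.74, with the third rhPBEF plus ventilation array inside the ventilation range (limma adjusted p = 0.254). Leukocyte adhesion molecules had 0 of 15 past by limma and 3 at an unadjusted p under 0.05, and Icam1, the endothelial and epithelial ligand of neutrophil integrins, came nearest at 0.90 (limma adjusted p = 0.0978). Adamts4, a protease of matrix proteoglycans, had the largest difference in the matrix list, 10.64, 9.87 and 8.002 against 6.66, 6.47 and 6.86, with groups apart and an adjusted p of 0.178 by limma. Tnfrsf9, a co-stimulatory receptor, led 16 TNF superfamily genes at 1.76 (limma adjusted p = 0.0571), with probe sets from 0.01 to 2.95. Without the third rhPBEF plus ventilation array 3 of the 15 adhesion genes, 5 of the 24 matrix genes and 4 of the 16 TNF superfamily genes passed. Without ventilation replicate 2 there were 0 in each of these lists.

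The 2 genes that fell were Krtap17-1 and Btc. Krtap17-1, a keratin-associated protein gene known from hair, measured 7.11, 7.17 and 7.82 in the rhPBEF plus ventilation arrays and 9.80, 9.80 and 9.54 in the ventilation arrays, a difference of -2.35 ± 0.25 (log2, standard error; limma adjusted p = 0.00418). Btc, betacellulin, a ligand of the EGF receptor, measured 6.98, 6.72 and 6.69 against 7.90, 8.03 and 7.52, a difference of -1.02 (limma adjusted p = 0.0096). Its other, dimmer probe set differed by -0.66. Btc was the member that passed among 12 EGF receptor ligands and receptors. Ereg, epiregulin, another ligand of that receptor, went the other way in value, 7.86, 6.67 and 6.68 against 5.63, 6.45 and 6.51, and did not pass (limma adjusted p = 0.478).

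Below the threshold, 8 further genes had groups apart and at least a 2-fold lower level with rhPBEF plus ventilation than with ventilation. Ventilation replicate 2 was the highest of the 6 arrays for all 8, and for 5 of them by over 1 log2 unit. Genes of that kind, the 2 past the test included, made up 0.055% of all genes. Slc5a3, an inositol transporter, measured 7.85, 7.79 and 7.78 against 8.76, 11.96 and 8.17, and P4ha1, a collagen hydroxylase, 9.42, 9.36 and 9.52 against 10.09, 12.33 and 9.55. Dnaja4, a co-chaperone, measured 9.16, 9.25 and 9.30 against 10.05, 13.52 and 9.37. Grb14, an adaptor of insulin receptor signalling, was less extreme, at 9.05, 9.32 and 10.05 against 10.18, 10.96 and 10.33 (limma adjusted p = 0.173). The others were Stbd1, Morc4, Arc and Sprr1a, with adjusted p-values from 0.242 to 0.643.

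Heat shock chaperones had 18 of 19 differences below 0 and none past limma's test, with 4 at an unadjusted p under 0.05 and a median of -0.95. Hsph1, a large chaperone, measured 9.99, 9.999 and 9.16 in the rhPBEF plus ventilation arrays and 11.12, 14.45 and 9.66 in the ventilation arrays, and Hspe1 measured 10.74, 10.91 and 10.48 against 11.69, 14.09 and 10.57. In both genes ventilation replicate 2 lay far above every other array. Without that array the list median was -0.22, with 16 of 19 below 0. Skeletal muscle genes had a median of -0.43 with 0 of 14 past by limma at either the adjusted or the unadjusted threshold. Tnnc2, a fast troponin, measured 5.58, 5.72 and 5.70 against 5.34, 5.68 and 10.23, high in ventilation replicate 3 alone.

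**Figure D4:**
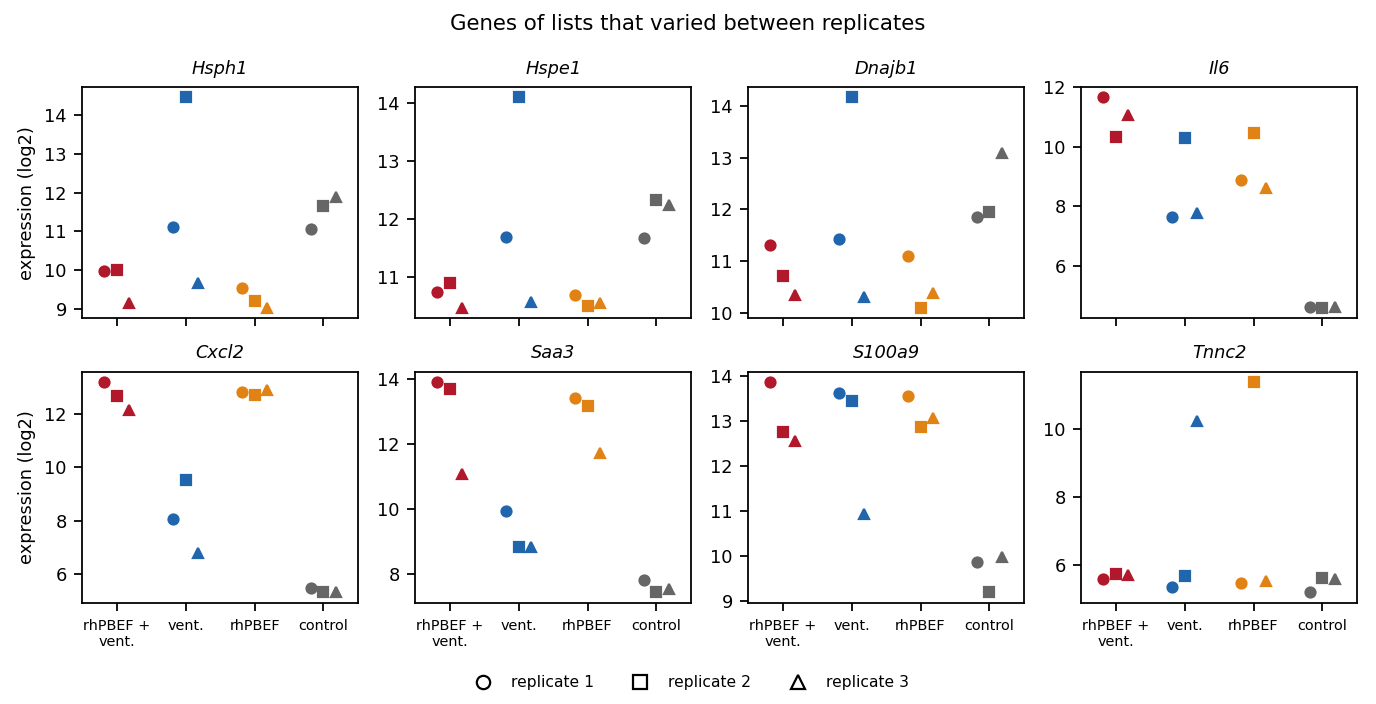
Expression (log2, y axis, which differs between panels and does not start at 0) of 8 genes on all 12 arrays by group, with shapes for replicates. Hsph1, Hspe1 and Dnajb1 are highest in ventilation replicate 2, Tnnc2 is high in ventilation replicate 3 and rhPBEF replicate 2, and Saa3 is low in the third rhPBEF plus ventilation array.

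Markers of the lung's resident cells did not pass the test. None of 28 endothelial markers, 12 surfactant and type II cell genes, 17 airway secretory and ciliated cell genes or 15 macrophage markers passed by limma, with 1, 2, 3 and 4 genes at an unadjusted p under 0.05, and the list medians were -0.01, 0.03, 0.06 and 0.05. Marco, a scavenger receptor of alveolar macrophages, measured 9.16, 9.33 and 8.27 against 7.89, 7.12 and 8.18 (limma adjusted p = 0.226), while Siglecf, an alveolar macrophage lectin, measured 6.79, 6.58 and 7.19 against 8.04, 7.38 and 6.94 (limma adjusted p = 0.48). Of 23 genes of NAD metabolism 0 passed by limma, 5 had an unadjusted p under 0.05, and the median was -0.08. Nampt itself, the mouse gene for PBEF, measured 10.88, 11.11 and 10.62 in the rhPBEF plus ventilation arrays and 10.64, 10.44 and 10.63 in the ventilation arrays. The difference of 0.30 ± 0.12 (log2, standard error) did not pass (limma adjusted p = 0.478), and the injected human protein adds no RNA.

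Addition of rhPBEF can also be read in lungs that were not ventilated, though there it was set against PBS. Whether the ventilation group received a liquid is not stated, so with ventilation too the water cannot be told apart from rhPBEF. The arrays are not shared with the ventilated contrast, although both contrasts came from 1 fit and share its estimate of spread. In rhPBEF against control 142 genes passed (0.781%), 114 higher (0.627%) and 28 lower (0.154%). Of the 42 genes past the test with ventilation, 35 also passed without it, which is 83.3% of the 42 and 24.6% of the 142, and all 42 had the same sign in both. The 7 that did not pass without ventilation were Aco1, Ccrl2, Hs6st1, Igsf8, Il34, Krtap17-1 and Pdzk1ip1. Of the 114 genes higher with rhPBEF alone all 114 had positive differences with ventilation, with a median of 0.93 there and 1.46 without ventilation, and 34 passed in both. The 114 were picked for their rise without ventilation, which by itself raises the median in that contrast. The medians therefore do not show a weaker response with ventilation.

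Cxcl2 had the largest rise without ventilation, 12.82, 12.69 and 12.90 in the rhPBEF arrays and 5.48, 5.33 and 5.31 in the control arrays, a log2 difference of 7.43 against 4.52 with ventilation. The rhPBEF arrays and the rhPBEF plus ventilation arrays reached similar levels of Cxcl2, and the ventilation arrays lay above the control arrays. For 15 of the 40 genes that rose, all ventilation arrays lay above all control arrays, and for 4 they lay below. Over all 18193 genes the shares were 9.77% (1777 genes) and 12% (2176 genes). The 40 were picked on a contrast that uses the same ventilation arrays, so their counts cannot be set against those shares. Il6 differed by 4.71 without ventilation (limma adjusted p = 0.00933) and by 2.44 with it. Slfn4, a myeloid gene of the Schlafen family, differed by 3.82 without ventilation (limma adjusted p = 0.0136) and by 0.61 with it, where the groups overlapped. Both Il6 and Slfn4 were named for their rise without ventilation, which by itself favours a larger difference there. Ccl20 differed by 4.31 with ventilation and by 3.88 without.

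**Figure D5:**
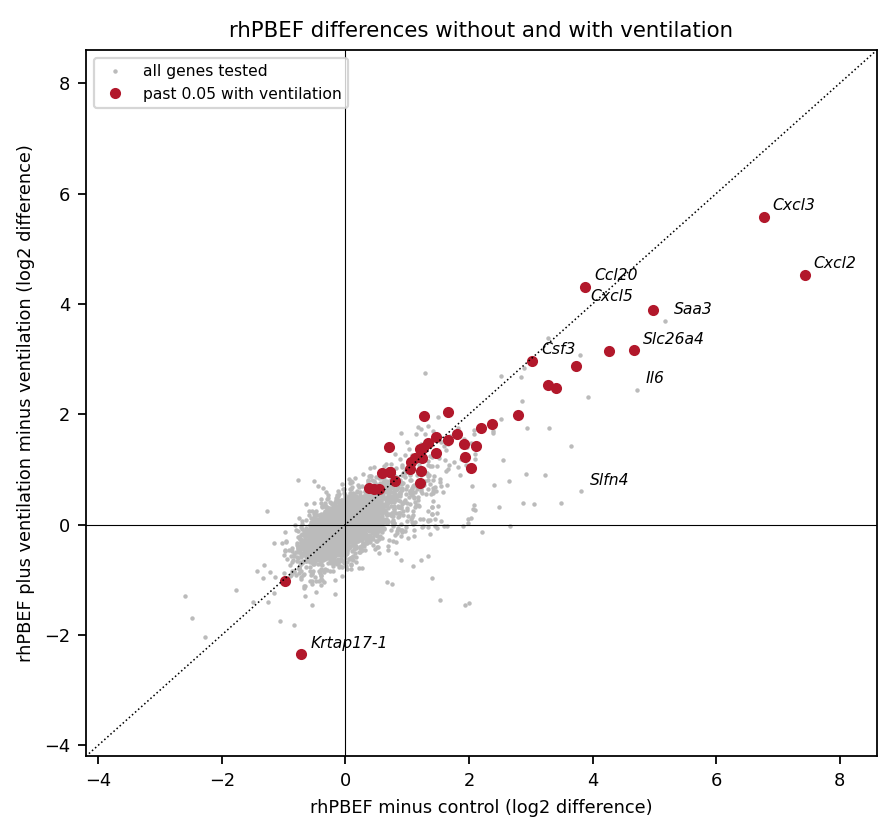
Log2 difference of rhPBEF plus ventilation minus ventilation (y axis) against rhPBEF minus control (x axis) for 18193 genes; red points are the 42 genes past 0.05 with ventilation and the dotted line marks equal differences. Cxcl2 and Cxcl3 lie below the line and Ccl20 above it, and all 42 genes lie in the quadrants of equal sign.

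No gene passed the test of whether the rhPBEF difference itself changed with ventilation (limma interaction term; lowest adjusted p 0.998, 449 genes or 2.47% at an unadjusted p under 0.05). Of the 42 genes 11 had an unadjusted interaction p under 0.05, and the interaction estimates of the 42 ran from -2.91 to 0.70. The 42 were picked on a contrast that forms part of the interaction. Their share therefore cannot be set against that of all genes. The 8 smallest p-values belonged to Krtap17-1, Fgg, Kcnmb1, Traf1, Lrrfip1, Slc7a7, Cxcl2 and Serpina9. Krtap17-1 differed by -2.35 with ventilation and by -0.71 without it, Fgg by 1.03 and 2.03. Traf1, an adaptor of TNF receptors, differed by 0.38 and -0.51. Its other probe set, almost as bright (mean level 7.871 against 7.905), differed by -0.13 with ventilation, the opposite sign. The size of the rhPBEF difference was thus not shown to differ between ventilated and unventilated lungs for any gene.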

How the data were processed

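Lung total RNA of 12 mouse samples was labelled and hybridised to Affymetrix arrays, per the labels' protocols. The authors deposited 1 value per probe set and array, which was treated as log2 from its range. Array medians nearly agree, but the normalisation is not stated. The submitters' processing notes name MAS5 and GCRMA, with roles and versions not given in the sources used here. Medians were 7.0 to 7.07, and the number of arrays limits the precision. Groups came from the titles and treatment protocols; a description field that named all samples as controls was set aside.

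Of 45101 probe sets, 64 controls were left out; 34945 of the other 45037 carried 1 gene symbol. Each of 18193 genes took its probe set with the highest 12-array mean, with no filter on level. limma 3.58.1 (R 4.3.3) fitted 4 group means with lmFit and eBayes; residual degrees of freedom were 8 and prior ones 3.14. It gave rhPBEF plus ventilation minus ventilation, rhPBEF minus control and their interaction, with Benjamini-Hochberg adjustment over all genes and a threshold of 0.05. Steps were tested on simulated data whose noise was independent between genes and arrays. Those data lack deviations shared across an array, so they do not bear on the counts here.

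The genes named were the 15 largest rises and 15 falls past 0.05 without overlap (places left went to 2-fold genes without overlap), the 8 smallest interaction p-values, the 10 largest rises with rhPBEF alone, Nampt, and up to 6 genes per described list. The other genes past 0.05, S100a8 and S100a9 were added after their values were seen. The comparison, its lists and its rules were chosen with earlier results of these data known. Lists are described by counts and medians only. Alternatives changed the filter, normalisation, variance model, probe sets, block, arrays in the fit and threshold, and left out each array. Promoters were taken from RefSeq (GRCm38.p6) by symbol. Plots used Python 3.11.15 and matplotlib 3.10.9.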

Additional observations from a re-analysis of the deposited data

Results flagged for a closer look

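Among the 10092 probe sets without a single gene symbol, which the gene-level comparison leaves out, 6 passed 0.05 when all probe sets were tested together, all higher in rhPBEF plus ventilation than in ventilation, by 0.85 to 3.95 on the log2 scale. They are 6 of 63 probe sets past the test in that fit, and their genes are not named here. For Slc7a7, a cationic amino acid transporter subunit, all arrays moved in opposite directions in the 2 contrasts, with rhPBEF plus ventilation above ventilation and rhPBEF below control. The difference between the contrasts was 0.54 (0.5443) on the log2 scale and did not pass the interaction test (limma adjusted p = 0.998). No outlier test was applied within groups of 3.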

How the results depend on the processing

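The count of genes past 0.05 (42: 40 higher, 2 lower) ran from 14 to 396 when each array was left out in turn, with 13 to 296 higher and 1 to 100 lower. It was 1552 with array weights (709 higher, 843 lower), 1 with the 6 ventilated arrays only (1 higher, 0 lower), 84 at a threshold of 0.1 (73 higher, 11 lower), and 356 without the pair of arrays that stood apart (264 higher, 92 lower), an alternative chosen after seeing the data. Lower genes numbered 4 with the mean over probe sets and 11 without the arrays high in skeletal muscle genes. The cause was not tested. The count at an unadjusted p under 0.05 (1665) was 4753 with array weights, 986 with 6 arrays, 3876 over all probe sets, 2650 without the muscle arrays, 2956 without the pair, and 1000 to 2683 leaving out 1 array. For rhPBEF against control (142) it was 1082 with array weights, 357 at 0.1, 74 without the muscle arrays, 623 without the pair, and 42 to 348 leaving out 1 array. The interaction (0) gave 2 without the muscle arrays and 0 to 4 leaving out 1 array, 4 without ventilation replicate 3.

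Whether the replicate numbers pair the arrays could not be settled with groups of 3. The deviations of same-numbered arrays correlated from -0.172 to 0.455, and in the ventilated groups from 0.01 to 0.344. Those of arrays with different numbers ran from -0.451 to 0.234. The highest of all, 0.455, joined replicate 3 of rhPBEF with replicate 3 of rhPBEF plus ventilation. With the replicate block 45 genes passed, and 184 for rhPBEF against control. Of the 41 named genes past 0.05, 31 kept their call under that block and 10 missed it with adjusted p-values from 0.0534 to 0.07 (Birc3, Cxcl5, H2az1, Malt1, Nfkbie, Pdzk1ip1, Pik3r5, Slc13a3, Slc5a1 and Tnfaip3). Of 982 values for the 41 named genes past 0.05, 726 kept their call, 256 kept the sign only and 0 reversed. Of 2701 values for the 113 others, 19 reversed: without the muscle arrays or without ventilation replicate 3, Acta1 (0.0171), Tnnc2 (0.16), Il1b (-0.0117), Slfn4 (-0.18), S100a8 (-0.33) and S100a9 (-0.47); without the pair, Dnajb1 (0.14), Hspa1a (0.32) and Hspa1b (0.44); with array weights, S100a8 (-0.11) and S100a9 (-0.21); without rhPBEF plus ventilation replicate 1, S100a9 (-0.0108); with the mean over probe sets, Kcnmb1 (-0.0142). Leaving out 1 array moved these from -2.06 to 0.0171 (Acta1), -2.29 to 0.16 (Tnnc2), -0.0117 to 1.62 (Il1b), -0.18 to 1.07 (Slfn4), -0.33 to 0.82 (S100a8) and -0.47 to 0.88 (S100a9). The table holds no background signal, so low levels stay unchecked.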

Other observations

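Other lists were counted in the contrast of rhPBEF plus ventilation with ventilation. Of 13 complement genes 0 passed the test by limma, 3 had an unadjusted p under 0.05, and Cfb, a factor of the alternative pathway, measured 9.62, 9.60 and 8.71 in the rhPBEF plus ventilation arrays and 8.45, 8.24 and 8.15 in the ventilation arrays (limma adjusted p = 0.134). Of 18 prostaglandin and leukotriene genes 0 passed and 5 had an unadjusted p under 0.05. Ptges, which makes prostaglandin E2, measured 9.70, 9.45 and 8.12 against 7.68, 7.77 and 8.08 (limma adjusted p = 0.276), with the third rhPBEF plus ventilation array near ventilation. Circadian clock genes had 0 of 17 past by limma and 4 at an unadjusted p under 0.05, and Arntl, a core clock activator, measured 7.71, 7.54 and 6.93 against 7.997, 8.67 and 7.93. Arg2, the mitochondrial arginase, measured 10.89, 10.80 and 10.19 against 9.91, 9.47 and 9.83, with groups apart and an adjusted p of 0.207 by limma.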
